A study of Mus musculus with 16 samples.

Results

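The 37 genes described here encode the enzymes of glycolysis, the pentose phosphate pathway and the tricarboxylic acid (TCA) cycle, together with the regulators Pfkfb3, Pdk1 and Hif1a. They were chosen by name from pathway knowledge, but with earlier results of these data known. All 37 had a probe among the 20663 genes found on the array and passed the filter that left 14674 genes for testing. Transcript levels had been measured on 16 one-colour Agilent arrays, each hybridised with RNA from CD4+ T cells purified from mouse spleen. The mice were males of 8 to 10 weeks, and all 6 groups carried Cre recombinase driven by the CD4 promoter, which is active in developing T cells and therefore deletes a floxed gene in the T cell lineage rather than only in cells that stay CD4+. CD4cre mice without a floxed gene served as controls (called Cre control), with 3 arrays without inflammation and 3 with nephrotoxic serum nephritis (NTN). Mice that also carried IKK2fl/fl (IKK2 knockout), which lack the kinase encoded by Ikbkb in T cells, had 3 arrays in each condition. Mice that carried NEMOfl/fl (NEMO knockout), which lack the regulatory subunit encoded by Ikbkg, had 2 arrays in each. Nephritis is an immune injury of the kidney, induced here by nephrotoxic sheep serum (2.5 mg per g body weight), and organs were taken on day 10. Animals with no inflammation are called untreated below. Whether arrays of 1 group stand for different mice is not given in the labels, and p-values reflect the spread among these arrays alone, which may be technical.

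Glycolysis splits glucose into pyruvate, which is either reduced to lactate by lactate dehydrogenase or carried into mitochondria and fed to the TCA cycle by pyruvate dehydrogenase. The pentose phosphate pathway branches off after the first step and supplies NADPH and ribose. Resting T cells rely largely on mitochondrial oxidation, and antigen stimulation raises glycolysis through Myc, mTOR and HIF1A. IKK2 and NEMO are parts of the IkB kinase complex, which activates NF-kB downstream of the T cell receptor and of cytokine receptors.

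All levels below are log2 intensities minus the array's 75th percentile, so that 0 is the level of that percentile and a level of 1 lies 2-fold above it. Differences between groups are on the same log2 scale, and a gene was called changed at an adjusted p under 0.05 in a limma model of all 14674 genes (Benjamini-Hochberg adjustment). Between 48.9% and 59.8% of the spots of an array were well above background, and no spot was saturated. The arrays lay on 3 slides: slide 1 held all nephritic Cre control arrays, IKK2 knockout replicates 1 and 2 and all nephritic IKK2 knockout arrays, slide 2 held all untreated Cre control arrays and IKK2 knockout replicate 3, and slide 3 held the 4 NEMO knockout arrays alone. A difference between NEMO knockout and any other genotype therefore cannot be told apart from a difference of slide 3. The probe of Ikbkb read 3.06 on average in untreated IKK2 knockout arrays and 3.30 in controls (adjusted p = 0.162), and that of Ikbkg read -0.84 in untreated NEMO knockout arrays and -0.70 in controls (adjusted p = 0.337). With nephritis the Ikbkb difference in IKK2 knockout cells was -0.34 (adjusted p = 0.134) and the Ikbkg difference in NEMO knockout cells was -0.34 (adjusted p = 0.0195). Each probe also changed in the other knockout: Ikbkb was lower in NEMO knockout cells (-0.35 and -0.48, adjusted p = 0.0371 and 0.00653), and Ikbkg was higher in untreated IKK2 knockout cells (0.68, adjusted p = 0.00152). Where either probe lies relative to the deleted part was not known here, and a probe outside it checks nothing. The array of Cre control replicate 1 stood apart in the spread of its replicate spots (a coefficient of variation of 10.72% against 4.15% to 5.77% on the others), and nephritic Cre control replicate 2 stood apart on the third principal component of all genes (-67.4).

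NEMO knockout cells differed from controls in both directions within these pathways. Hk2, Pfkp, Tpi1, Gapdh, Pgk1, Pgam1 and Idh3a were higher than in Cre control cells in both conditions, and Pfkm, Eno2, Ldhb, Pdk1 and Idh2 were lower in both. These were 7 and 5 of 37, while 15.7% of all genes were higher and 17.8% lower in both conditions. Without nephritis 11 members were higher, 5 were lower and 21 did not pass. The 16 called members made up 43.2% of the 37, while 43.0% of all genes tested were called in the same comparison (21.0% higher and 22.0% lower). With nephritis 8 were higher and 8 were lower, against 48.4% of all genes (18.8% higher and 29.6% lower). The share of members called was thus close to that of all genes, and no excess of called members was seen. The median difference of the members was 0.095 without nephritis and -0.048 with it, beside -0.056 and -0.14 over all genes. The split with nephritis was 9 higher and 5 lower under median scaling and 11 higher and 5 lower in the authors' deposited table, whose processing is not given. In the first principal component of the 37 genes, which held 76.4% of their variance, the NEMO knockout arrays lay at 3.01 to 3.73 and all other arrays at -2.06 to -0.073. Genes were not scaled to equal variance, so members with large differences weighed most. The first component of all genes (49.1% of the variance) separated the same arrays, at 71.8 to 90.2 against -51.9 to 7.87, so this split was not particular to the members. The comparisons with and without nephritis use different arrays, but each shares its Cre control arrays with the IKK2 knockout comparison of the same condition.

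**Figure D1:**
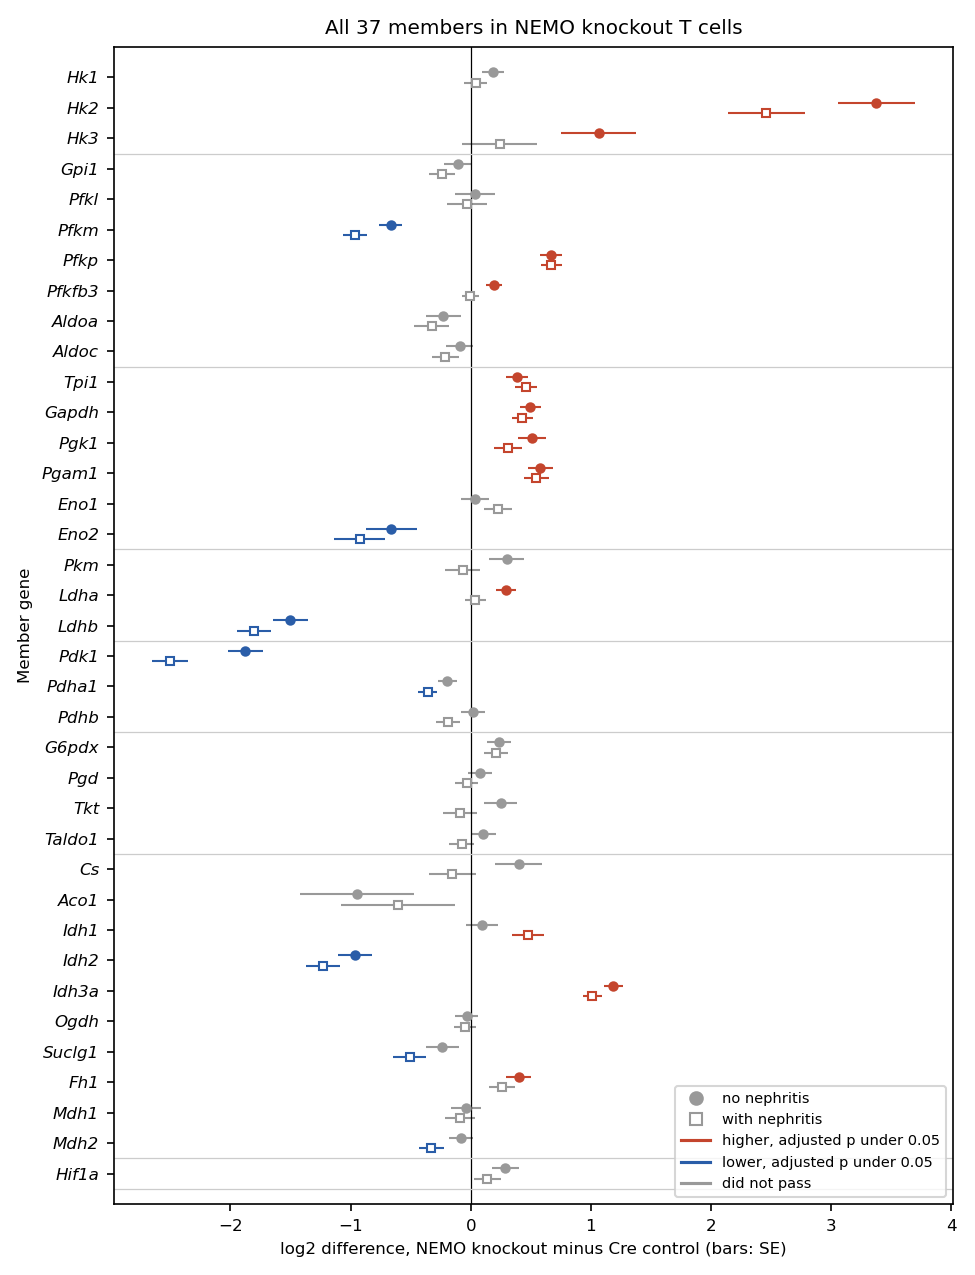
Log2 difference between NEMO knockout and Cre control for each of the 37 members, ordered by pathway step, without nephritis (filled circles) and with it (open squares). Bars show the standard error, and red and blue mark members past the threshold (11 higher and 5 lower without nephritis, 8 higher and 8 lower with it).

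Hexokinases trap glucose in the cell as glucose 6-phosphate, and Hk2 is the inducible form that rises when T cells are activated. Hk2 had the largest difference of all members. Its level was -4.57, -3.73 and -3.73 on untreated control arrays, -3.06, -2.48 and -2.17 on untreated IKK2 knockout arrays and -0.69 and -0.58 on untreated NEMO knockout arrays, and with nephritis -2.96, -3.13 and -3.16, -2.94, -3.90 and -3.15 and -0.63 and -0.61 in the same order. All 4 NEMO knockout arrays lay above every other array, and untreated Cre control replicate 1 was not well above background. Against the matched controls alone, 30.8% of all genes lay wholly above without nephritis and 26.7% with it. Hk2 was higher in NEMO knockout than in Cre control cells by 3.38 (SE 0.32, 10.4-fold, adjusted p = 9.25e-06) without nephritis and by 2.46 (SE 0.32, adjusted p = 8.41e-05) with it. It was also higher than in IKK2 knockout cells, by 1.93 and 2.71 (SE 0.32 each). The size depended on the background correction, with 1.58 and 1.31 against controls after normexp correction and 2.20 without nephritis in the authors' deposited table, and all of these passed.

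Hk1, the constitutive hexokinase, read 4.81 and 4.82 in untreated and 4.88 and 4.99 in nephritic NEMO knockout cells, against 4.70, 4.71 and 4.48 and 4.94, 4.90 and 4.83 in controls and 4.93, 4.72 and 4.73 and 4.87, 4.77 and 4.88 in IKK2 knockout cells. Its groups differed by 0.19 at most from the matched controls and none of its differences passed. Hk3, a hexokinase of myeloid cells, read -3.12, -3.12 and -3.39 in untreated and -2.40, -2.75 and -1.56 in nephritic controls, -2.20, -2.37 and -2.68 and -2.16, -2.18 and -2.97 in untreated and nephritic IKK2 knockout cells, and -2.08 and -2.21 and -1.96 and -2.03 in untreated and nephritic NEMO knockout cells. It was lowest on the 3 untreated Cre control arrays, and the NEMO knockout exceeded them by 1.06 (SE 0.31, adjusted p = 0.0170), which fell to 0.35 (adjusted p = 0.0626) after normexp correction. With nephritis the Hk3 difference was 0.24 (adjusted p = 0.549). In the same untreated comparison 8 of 9 myeloid genes were higher in NEMO knockout cells (21.0% of all genes were). The mean log2 difference of the list from the untreated control mean was 2.28 to 2.52 on these arrays and -0.28 to 0.29 on the control arrays. The summed level, which the brightest genes dominate, was lower than in controls (50.9 to 59.9 against 66.3 to 88.6 times the array's 75th percentile).

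**Figure D2:**
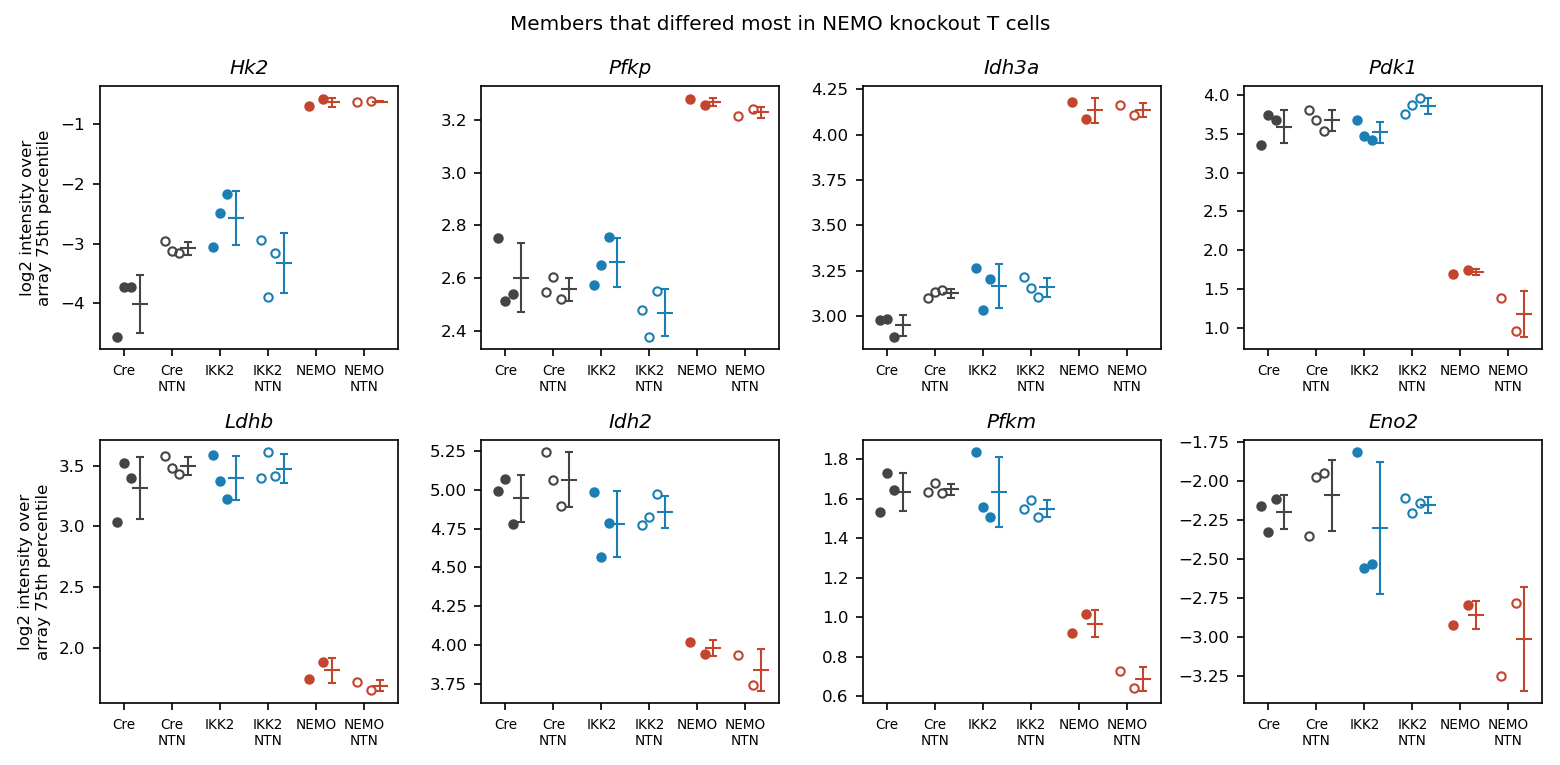
Levels of 8 members on each of the 16 arrays, as log2 intensity over the array's 75th percentile, with untreated groups as filled and nephritic groups (NTN) as open circles and the mean ± SD of 2 or 3 arrays beside them. The 4 NEMO knockout arrays lie above all others for Hk2, Pfkp and Idh3a and below all others for the other 5 genes. Of all genes, 30.8% lay wholly above and 36.2% wholly below the untreated controls in the NEMO knockout (26.7% and 43.6% with nephritis).

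Phosphofructokinase, which commits glucose to glycolysis, is built from liver, muscle and platelet type subunits encoded by Pfkl, Pfkm and Pfkp. In NEMO knockout cells the platelet type was higher and the muscle type lower. Pfkp read 2.75, 2.51 and 2.54 on untreated control arrays, 2.57, 2.65 and 2.76 on untreated IKK2 knockout arrays and 3.28 and 3.26 on untreated NEMO knockout arrays, and with nephritis 2.55, 2.61 and 2.52, 2.48, 2.38 and 2.55 and 3.21 and 3.24 in the same order. Pfkm read 0.92 and 1.02 in untreated and 0.73 and 0.64 in nephritic NEMO knockout cells, against 1.53, 1.73 and 1.64 and 1.64, 1.68 and 1.63 in controls and 1.84, 1.56 and 1.51 and 1.55, 1.59 and 1.51 in IKK2 knockout cells. For both genes the 4 NEMO knockout arrays did not overlap with any of the other 12. Against the matched controls alone, 30.8% and 26.7% of all genes lay wholly above and 36.2% and 43.6% wholly below. Pfkp was higher by 0.67 without and 0.67 with nephritis (SE 0.089, adjusted p = 1.07e-04 and 9.42e-05), and Pfkm was lower (-0.67 and -0.96, SE 0.098, adjusted p = 2.17e-04 and 1.42e-05). Both calls were kept in all 29 alternatives run for each, most of which left out 1 array. None of these alternatives separates the NEMO knockout from slide 3. Pfkl read 0.89, 0.94 and 0.68 in untreated and 0.92, 1.18 and 1.01 in nephritic controls, 1.66, 1.12 and 1.04 and 1.18, 0.97 and 1.08 in untreated and nephritic IKK2 knockout cells, and 0.76 and 0.98 and 0.96 and 1.06 in untreated and nephritic NEMO knockout cells. Its highest array was IKK2 knockout replicate 1, and none of its differences passed.

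Pfkfb3 makes the activator of phosphofructokinase, fructose 2,6-bisphosphate. Its level was 2.80, 2.80 and 2.73 on untreated control arrays, 2.95, 3.01 and 2.85 on untreated IKK2 knockout arrays and 2.96 and 2.98 on untreated NEMO knockout arrays, and with nephritis 2.93, 2.88 and 2.80, 2.81, 2.78 and 2.79 and 2.85 and 2.88 in the same order. The NEMO knockout exceeded the untreated controls by 0.19 (SE 0.069, adjusted p = 0.0383), a call kept in 10 of 29 alternatives, and differed by -0.0024 with nephritis (adjusted p = 0.980). The aldolases split the phosphorylated hexose. Aldoa read 7.11 and 7.003 in untreated and 7.12 and 7.14 in nephritic NEMO knockout cells, against 7.53, 7.26 and 7.07 and 7.47, 7.53 and 7.37 in controls and 7.51, 7.20 and 7.08 and 7.25, 7.12 and 7.36 in IKK2 knockout cells. Aldoc read 1.69, 1.66 and 1.73 in untreated and 1.84, 2.12 and 1.996 in nephritic controls, 1.71, 1.69 and 1.43 and 1.48, 1.77 and 1.65 in untreated and nephritic IKK2 knockout cells, and 1.58 and 1.63 and 1.74 and 1.80 in untreated and nephritic NEMO knockout cells. Aldoc lay below the matched controls on every NEMO knockout array and every nephritic IKK2 knockout array, and Aldoa did so in both nephritic knockouts. This was so for 36.2% of all genes in the untreated and 43.6% in the nephritic NEMO knockout, and for 15.2% in the nephritic IKK2 knockout. Neither aldolase passed in any comparison. Gpi1, which converts glucose 6-phosphate to fructose 6-phosphate, did not pass either. Of the 7 members of the hexose phosphate steps, 2 were thus higher and 1 lower in untreated NEMO knockout cells (21.0% and 22.0% of all genes were).

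The triose phosphate steps are where glycolysis yields NADH and ATP, and 4 of the 6 members measured there were higher in NEMO knockout cells in both conditions (15.7% of all genes were). Gapdh, glyceraldehyde 3-phosphate dehydrogenase, read 7.41, 7.48 and 7.36 on untreated control arrays, 7.69, 7.52 and 7.44 on untreated IKK2 knockout arrays and 7.93 and 7.89 on untreated NEMO knockout arrays, and with nephritis 7.66, 7.64 and 7.59, 7.71, 7.49 and 7.59 and 8.05 and 8.07 in the same order. Each NEMO knockout array exceeded each other array (30.8% and 26.7% of all genes lay wholly above the matched controls). Gapdh was higher by 0.50 and 0.43 (SE 0.089, adjusted p = 8.90e-04 and 0.00203), and by 1.04 and 0.98 after quantile normalization. Gapdh is often used as a reference gene, and it was not constant between these groups under any scaling run here. Tpi1, triose phosphate isomerase, was higher by 0.38 and 0.46 (SE 0.093, adjusted p = 0.00569 and 0.00165), on 3.34 and 3.32 and 3.59 and 3.63 against 3.099, 2.89 and 2.85 and 3.12, 3.18 and 3.15.

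Phosphoglycerate mutase, encoded by Pgam1, read 4.45 and 4.44 in untreated and 4.67 and 4.66 in nephritic NEMO knockout cells, against 3.998, 3.73 and 3.88 and 4.13, 4.13 and 4.09 in controls and 4.52, 4.31 and 4.27 and 4.33, 4.07 and 4.29 in IKK2 knockout cells. It was higher than in controls by 0.58 and 0.54 (SE 0.10, adjusted p = 8.88e-04 and 0.00120) in NEMO knockout cells. In untreated IKK2 knockout cells the 3 arrays lay between 4.27 and 4.52, on both sides of the untreated NEMO knockout arrays. Phosphoglycerate kinase, encoded by Pgk1, read 4.91, 5.05 and 4.93 in untreated and 5.33, 5.36 and 5.21 in nephritic controls, and 5.53 and 5.41 and 5.61 and 5.61 in the NEMO knockouts. Its difference was 0.51 without nephritis (SE 0.12, adjusted p = 0.00428), kept in all 29 alternatives. With nephritis it was 0.31 (adjusted p = 0.0466), kept in only 12 of 29.

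Enolase makes phosphoenolpyruvate, with Eno1 as the ubiquitous and Eno2 as the neuron-enriched form. Eno1 read 6.74, 6.73 and 6.60 in untreated and 6.71, 6.45 and 6.38 in nephritic controls, 6.70, 6.61 and 6.68 and 6.62, 6.31 and 6.64 in untreated and nephritic IKK2 knockout cells, and 6.71 and 6.75 and 6.76 and 6.72 in untreated and nephritic NEMO knockout cells. Eno2 read -2.16, -2.33 and -2.12 on untreated control arrays, -1.81, -2.56 and -2.53 on untreated IKK2 knockout arrays and -2.92 and -2.80 on untreated NEMO knockout arrays, and with nephritis -2.36, -1.98 and -1.95, -2.11, -2.21 and -2.14 and -3.25 and -2.78 in the same order. Eno1 did not pass in any comparison. Eno2 was lowest on the 4 NEMO knockout arrays (36.2% and 43.6% of all genes lay wholly below the matched controls). It was lower than in controls (-0.66 and -0.92, SE 0.21, adjusted p = 0.0270 and 0.00413), with the untreated call kept in 20 of 29 alternatives and the nephritic call in 28. It lay well below the 75th percentile on every array, and its differences were -0.40 and -0.60 after normexp correction.

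Promoter sequence is shown for the 3 genes with the largest mean difference in each direction among those called the same way in both conditions, namely Hk2, Pfkp and Pgam1 from those higher and Pdk1, Ldhb and Idh2 from those lower in NEMO knockout cells. Idh3a has no entry in the table used. Hk2 and Pdk1 are textbook targets of HIF1A, whose binding element has the core ACGTG. Sequences are from RefSeq, mouse assembly GRCm38.p6, and cover the 250 bases before the 5′-most annotated start, read 5′ to 3′ on the strand of the gene. The spans are chr6:82774455-82774704 for Hk2 (minus strand), chr13:6648772-6649021 for Pfkp (minus), chr19:41911621-41911870 for Pgam1 (plus), chr2:71872974-71873223 for Pdk1 (plus), chr6:142507958-142508207 for Ldhb (minus) and chr7:80115351-80115600 for Idh2 (minus). Capitals mark ACGTG on the printed strand, or CACGT, which is the same core on the other strand.
Hk2: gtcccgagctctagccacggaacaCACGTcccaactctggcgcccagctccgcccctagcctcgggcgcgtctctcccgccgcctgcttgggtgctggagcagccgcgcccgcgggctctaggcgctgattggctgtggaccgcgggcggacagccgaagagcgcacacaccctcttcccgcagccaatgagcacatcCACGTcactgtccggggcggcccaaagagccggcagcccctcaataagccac
Pfkp: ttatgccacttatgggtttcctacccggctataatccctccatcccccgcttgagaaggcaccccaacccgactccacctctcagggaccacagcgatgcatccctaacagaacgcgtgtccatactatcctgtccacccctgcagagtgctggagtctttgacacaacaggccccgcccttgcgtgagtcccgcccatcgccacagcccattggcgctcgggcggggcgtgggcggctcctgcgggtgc
Pgam1: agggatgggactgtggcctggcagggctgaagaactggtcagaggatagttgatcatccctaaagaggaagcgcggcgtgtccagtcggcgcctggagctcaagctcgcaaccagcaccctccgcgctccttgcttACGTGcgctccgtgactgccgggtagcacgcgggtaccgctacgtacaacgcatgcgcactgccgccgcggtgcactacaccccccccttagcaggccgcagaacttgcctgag
Pdk1: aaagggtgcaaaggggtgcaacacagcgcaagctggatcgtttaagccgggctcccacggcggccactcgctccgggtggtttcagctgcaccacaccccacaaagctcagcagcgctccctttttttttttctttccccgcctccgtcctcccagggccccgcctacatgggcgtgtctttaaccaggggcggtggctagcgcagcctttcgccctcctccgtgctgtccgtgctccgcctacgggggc
Ldhb: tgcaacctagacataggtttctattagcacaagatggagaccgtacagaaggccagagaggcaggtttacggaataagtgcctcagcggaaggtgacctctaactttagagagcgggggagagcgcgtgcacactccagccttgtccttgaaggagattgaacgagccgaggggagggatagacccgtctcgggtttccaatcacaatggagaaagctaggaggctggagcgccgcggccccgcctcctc
Idh2: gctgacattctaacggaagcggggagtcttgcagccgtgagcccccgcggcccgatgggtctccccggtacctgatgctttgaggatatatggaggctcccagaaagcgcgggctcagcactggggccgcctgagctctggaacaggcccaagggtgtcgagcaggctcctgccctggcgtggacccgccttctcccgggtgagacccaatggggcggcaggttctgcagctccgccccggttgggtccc

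The core began 226 and 52 bases before the start in Hk2 and 114 bases before it in Pgam1, while it was not in these windows of Pfkp, Pdk1, Ldhb and Idh2. Of the 37 members 36 matched the RefSeq table by symbol. The core was present on either strand in 11 of the 36 members (30.6%), in 16.5% of all 27025 promoter windows of this length and in 20.6% of those of genes tested here. It was present in 3 of 6 members higher in both conditions (Hk2, Pgk1 and Pgam1) and in 1 of 5 lower in both (Pfkm). The E-box CACGTG, bound by Myc among others and containing the same core, was in Hif1a, Ldha and Pfkm (3 of 36, 8.33%, against 6.04% of all windows and 7.90% of those of genes tested). The NF-kB consensus was in 0 of 36 members, against 3.74% of all windows and 4.24% of those of genes tested. A match describes the letters in the window and not a bound site, and no match says only that these letters are not in it.

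At the last steps of glycolysis, Ldhb was lower in NEMO knockout cells while Pkm did not pass. Pyruvate kinase, encoded by Pkm, read 5.20 and 5.25 in untreated and 5.20 and 5.29 in nephritic NEMO knockout cells, against 4.82, 5.08 and 4.88 and 5.47, 5.29 and 5.19 in controls and 5.68, 5.29 and 5.11 and 5.36, 5.30 and 5.33 in IKK2 knockout cells. It did not pass in NEMO knockout cells (0.30 and -0.067, SE 0.14). Ldha encodes the A subunit of lactate dehydrogenase, which favours lactate formation, and Ldhb the B subunit, which favours lactate use. Ldha read 7.71, 7.84 and 7.70 in untreated and 8.04, 8.06 and 7.93 in nephritic controls, 8.17, 8.004 and 8.02 and 8.12, 7.95 and 8.14 in untreated and nephritic IKK2 knockout cells, and 8.06 and 8.02 and 8.10 and 7.996 in untreated and nephritic NEMO knockout cells. Ldhb read 3.03, 3.52 and 3.40 on untreated control arrays, 3.59, 3.37 and 3.23 on untreated IKK2 knockout arrays and 1.74 and 1.89 on untreated NEMO knockout arrays, and with nephritis 3.58, 3.48 and 3.43, 3.40, 3.61 and 3.42 and 1.72 and 1.66 in the same order. Ldhb fell on all 4 NEMO knockout arrays to below 2, with every other array at 3.03 or above (36.2% and 43.6% of all genes lay wholly below the matched controls). It was lower than in controls (-1.501 and -1.80, SE 0.14, 0.353 and 0.286 times the control level, adjusted p = 9.30e-06 and 2.46e-06), and lower than in IKK2 knockout cells (-1.58 and -1.78). Ldha was higher by 0.29 without nephritis (SE 0.087, adjusted p = 0.0170) and differed by 0.036 with it (adjusted p = 0.754). The untreated Ldha call was kept in 23 of 29 alternatives.

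Pdk1, a kinase that switches off pyruvate dehydrogenase and so keeps pyruvate out of the TCA cycle, had the largest fall of all members. Its level was 1.69 and 1.74 in untreated and 1.38 and 0.96 in nephritic NEMO knockout cells, against 3.35, 3.75 and 3.67 and 3.80, 3.68 and 3.54 in controls and 3.67, 3.47 and 3.42 and 3.76, 3.87 and 3.96 in IKK2 knockout cells. The 4 NEMO knockout arrays did not overlap with the other 12, whose lowest was 3.35 (36.2% and 43.6% of all genes lay wholly below the matched controls). Pdk1 was lower than in controls without nephritis (-1.87, SE 0.15, 0.273 times the control level, adjusted p = 2.66e-06) and with it (-2.50, 0.176 times the control level, adjusted p = 4.49e-07). The change with nephritis within NEMO knockout cells was -0.55 (SE 0.16, adjusted p = 0.360) and did not pass. Against IKK2 knockout cells the differences were -1.80 and -2.69.

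The measured subunits of pyruvate dehydrogenase, the enzyme that Pdk1 switches off, changed less. Pdha1, the catalytic alpha subunit, read 2.70, 2.74 and 2.65 in untreated and 2.67, 2.77 and 2.67 in nephritic controls, 2.72, 2.51 and 2.70 and 2.67, 2.65 and 2.73 in untreated and nephritic IKK2 knockout cells, and 2.50 and 2.51 and 2.38 and 2.31 in untreated and nephritic NEMO knockout cells. Pdhb, the beta subunit, read 4.99, 5.10 and 5.001 on untreated control arrays, 4.98, 4.89 and 4.94 on untreated IKK2 knockout arrays and 5.03 and 5.06 on untreated NEMO knockout arrays, and with nephritis 5.31, 5.08 and 5.004, 4.91, 4.91 and 5.06 and 5.03 and 4.85 in the same order. Pdha1 was lower with nephritis (-0.36, SE 0.077, adjusted p = 0.00259), but differed by -0.19 under median scaling (adjusted p = 0.288). Pdhb did not pass in any comparison.

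The pentose phosphate enzymes G6pdx, Pgd, Tkt and Taldo1 did not pass in NEMO knockout cells in either condition. G6pdx, glucose 6-phosphate dehydrogenase and the entry step, read 3.18 and 3.12 in untreated and 3.15 and 3.23 in nephritic NEMO knockout cells, against 2.998, 2.93 and 2.82 and 2.96, 3.08 and 2.90 in controls and 3.24, 2.95 and 2.96 and 3.02, 2.89 and 2.91 in IKK2 knockout cells. Its difference from controls was 0.23 and 0.21 (SE 0.10, adjusted p = 0.0829 and 0.107). The other 3 differed by -0.088 to 0.25 with SEs of 0.099 to 0.14.

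The isocitrate dehydrogenases moved in opposite directions in NEMO knockout cells. Idh3a encodes the catalytic subunit of the NAD-dependent enzyme of the TCA cycle, Idh2 the NADP-dependent mitochondrial enzyme and Idh1 its cytosolic counterpart. Idh3a read 2.98, 2.98 and 2.88 in untreated and 3.098, 3.13 and 3.14 in nephritic controls, 3.26, 3.03 and 3.20 and 3.21, 3.16 and 3.104 in untreated and nephritic IKK2 knockout cells, and 4.18 and 4.09 and 4.16 and 4.11 in untreated and nephritic NEMO knockout cells. Idh2 read 4.99, 5.07 and 4.78 on untreated control arrays, 4.99, 4.56 and 4.79 on untreated IKK2 knockout arrays and 4.02 and 3.94 on untreated NEMO knockout arrays, and with nephritis 5.24, 5.06 and 4.89, 4.77, 4.83 and 4.97 and 3.93 and 3.74 in the same order. Neither gene had a NEMO knockout array within the range of the other 12. Against the matched controls alone, 30.8% and 26.7% of all genes lay wholly above and 36.2% and 43.6% wholly below. Idh3a was higher than in controls by 1.19 and 1.01 (SE 0.080, 2.28-fold and 2.01-fold, adjusted p = 9.83e-07 and 2.40e-06). Idh2 was lower (-0.96 and -1.23, SE 0.14, 0.513 and 0.427 times the control level, adjusted p = 2.05e-04 and 3.29e-05). Both were called against IKK2 knockout cells too, in both conditions and in all 29 alternatives.

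Idh1 read -2.98 and -2.90 in untreated and -2.80 and -2.70 in nephritic NEMO knockout cells, against -3.07, -3.07 and -2.96 and -3.13, -3.101 and -3.44 in controls and -2.91, -2.99 and -2.67 and -3.32, -3.26 and -3.60 in IKK2 knockout cells. It was higher than in nephritic controls by 0.48 (SE 0.13, adjusted p = 0.0120), but differed by -0.028 after normexp correction, so its direction is not settled. The malate dehydrogenases Mdh1 (cytosolic) and Mdh2 (mitochondrial) were the other family in the cycle. Mdh1 read 4.83, 4.96 and 4.91 in untreated and 5.19, 4.89 and 4.88 in nephritic controls, 4.72, 4.41 and 4.76 and 4.89, 4.97 and 4.87 in untreated and nephritic IKK2 knockout cells, and 4.87 and 4.86 and 5.002 and 4.80 in untreated and nephritic NEMO knockout cells. Mdh2 read 7.34, 7.21 and 7.04 on untreated control arrays, 7.38, 7.48 and 7.27 on untreated IKK2 knockout arrays and 7.14 and 7.09 on untreated NEMO knockout arrays, and with nephritis 7.56, 7.55 and 7.41, 7.27, 7.32 and 7.42 and 7.25 and 7.11 in the same order. Mdh1 did not pass in any comparison. Mdh2 was lower with nephritis (-0.33, SE 0.10, adjusted p = 0.0195), a direction that turned after quantile normalization (0.090).

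Of the other TCA cycle members, Fh1, fumarate hydratase, was higher without nephritis (0.40, SE 0.11, adjusted p = 0.0106). Suclg1, a subunit of succinyl-CoA synthetase, was lower with nephritis (-0.51, SE 0.14, adjusted p = 0.00994, and -0.34 under median scaling, where it did not pass). Citrate synthase (Cs), the cytosolic aconitase Aco1 and Ogdh, a subunit of oxoglutarate dehydrogenase, did not pass. Cre control replicate 1 was far from its 2 replicates for both Cs (5.12, 6.03 and 5.83) and Aco1 (-1.001, -2.84 and -2.72), which widened their errors. Of the members listed with the TCA cycle, 2 were higher and 1 lower without nephritis (21.0% and 22.0% of all genes). With nephritis 2 were higher and 3 lower (18.8% and 29.6% of all genes). The latter include cytosolic Idh1 and Mdh2, whose directions turned under an alternative.

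Hif1a encodes the oxygen-sensitive subunit of the factor that drives many glycolytic genes. It read 1.91 and 1.97 in untreated and 2.19 and 2.12 in nephritic NEMO knockout cells, against 1.64, 1.63 and 1.70 and 1.87, 2.18 and 1.997 in controls and 1.60, 1.65 and 1.76 and 1.94, 1.63 and 1.63 in IKK2 knockout cells. In NEMO knockout cells it was not called against controls (0.29 and 0.14, SE 0.11, adjusted p = 0.0558 and 0.325), and it exceeded nephritic IKK2 knockout cells by 0.42 (adjusted p = 0.00864).

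Against IKK2 knockout cells, 9 members were called in the NEMO knockout without nephritis (5 higher, 4 lower, with 35.3% of all genes called, 15.4% higher and 19.9% lower) and 15 with it (8 higher, 7 lower, 46.1% of all genes, 19.0% higher and 27.2% lower). The second split was 14 higher and 4 lower under median scaling. Hk2, Pfkp, Tpi1, Gapdh and Idh3a were higher and Pfkm, Ldhb, Pdk1 and Idh2 lower than in both other genotypes and in both conditions. Against controls alone, 15.7% of all genes were higher and 17.8% lower in both conditions. The share of all genes called against both genotypes was not computed, so no excess of members can be read from this list. In 8 members the call against controls was made in 1 condition only, namely Hk3, Pfkfb3, Ldha and Fh1 without nephritis and Pdha1, Idh1, Suclg1 and Mdh2 with it. The matching share of all genes was not computed. No member passed the test of a difference between the nephritis responses of NEMO knockout and control cells (0 called, 0.266% of all genes), and 1 reached an unadjusted p under 0.05 in limma (10.1% of all genes did).

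**Figure D3:**
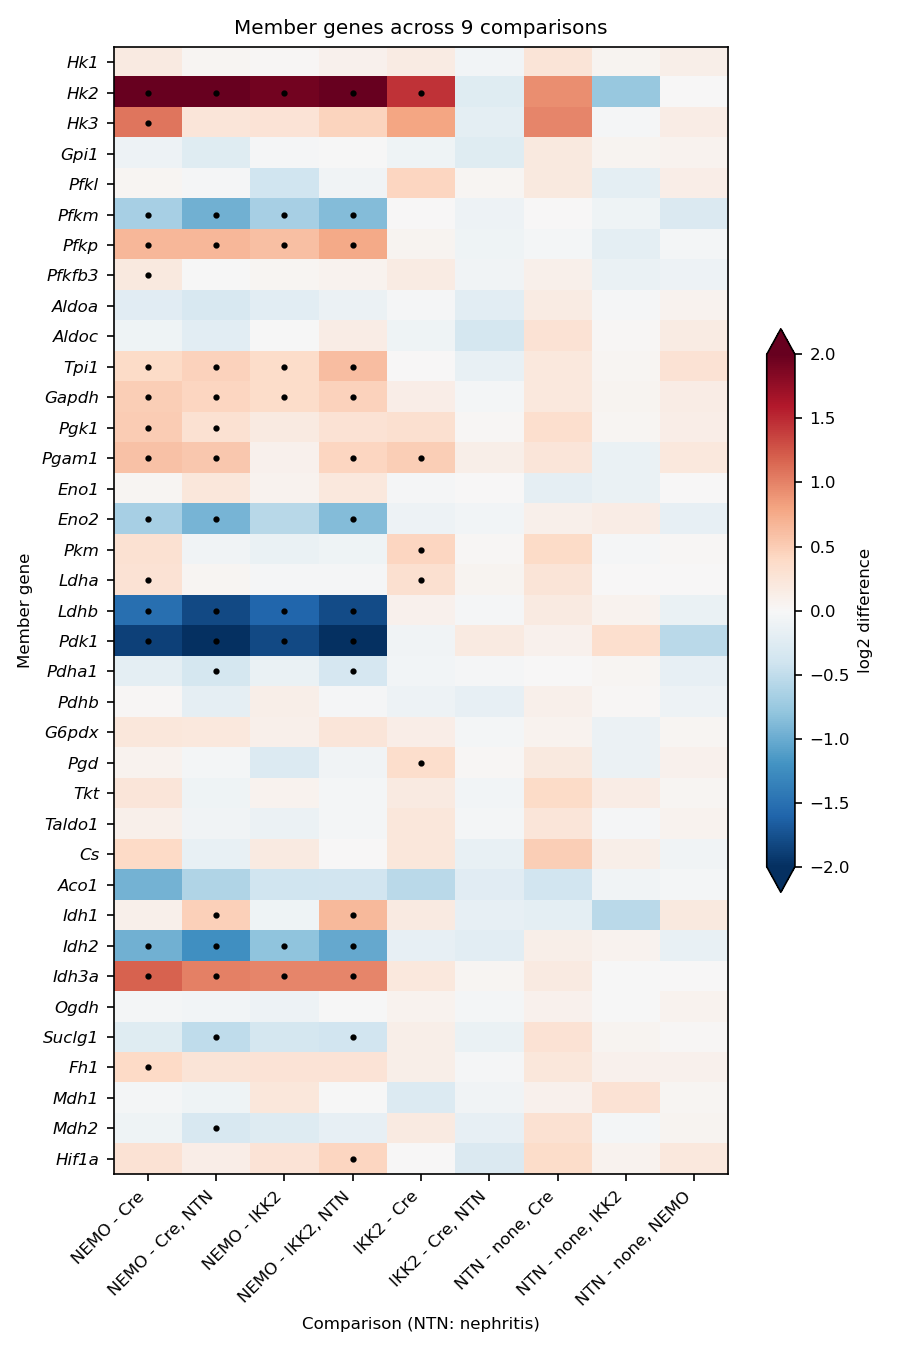
Log2 differences of the 37 members (rows) in 9 comparisons (columns), with red higher, blue lower and a dot at an adjusted p under 0.05. Colours are limited to the range -2 to 2, so Hk2 in 3 NEMO knockout columns and Pdk1 in 2 exceed the scale.

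In untreated IKK2 knockout cells the changes were fewer and all upward. Hk2, Pgam1, Pkm, Ldha and Pgd, 6-phosphogluconate dehydrogenase, were higher than in Cre control cells, and 32 members did not pass. The 5 called members were 13.5% of 37, beside 14.5% of all genes (10.0% higher). Hk2 was higher by 1.44 (SE 0.29, 2.72-fold, adjusted p = 0.00783), but by 0.49 after normexp correction. Every untreated IKK2 knockout array lay above every untreated control array for Hk2, as for 18.9% of all genes. Pgam1 was higher by 0.50 (SE 0.093, adjusted p = 0.00590), Pkm by 0.44 (SE 0.13, adjusted p = 0.0440) and Ldha by 0.32 (SE 0.078, adjusted p = 0.0193). Pgd read 3.32, 3.01 and 3.08 in these cells and 2.84, 2.79 and 2.74 in controls, a difference of 0.35 (SE 0.089, adjusted p = 0.0236).

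The untreated controls lay on slide 2 and 2 of the 3 IKK2 knockout arrays on slide 1. With slide as a fixed block only Hk2 passed (1.84, SE 0.39, adjusted p = 0.0245), and Pgam1 (0.40), Pgd (0.29), Ldha (0.28) and Pkm (0.19) had positive differences that did not pass. Slide 2 held 1 IKK2 knockout and 3 control arrays, so these values are the differences of IKK2 knockout replicate 3 alone from the controls, and the values within slide 2 are the same. That array was assumed to vary like the others. The count was 2 without IKK2 knockout replicate 1 or without Cre control replicate 3, and 3 without Cre control replicate 1. When only the 6 arrays compared were fitted, none of the 5 passed and 1 other member did.

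**Figure D4:**
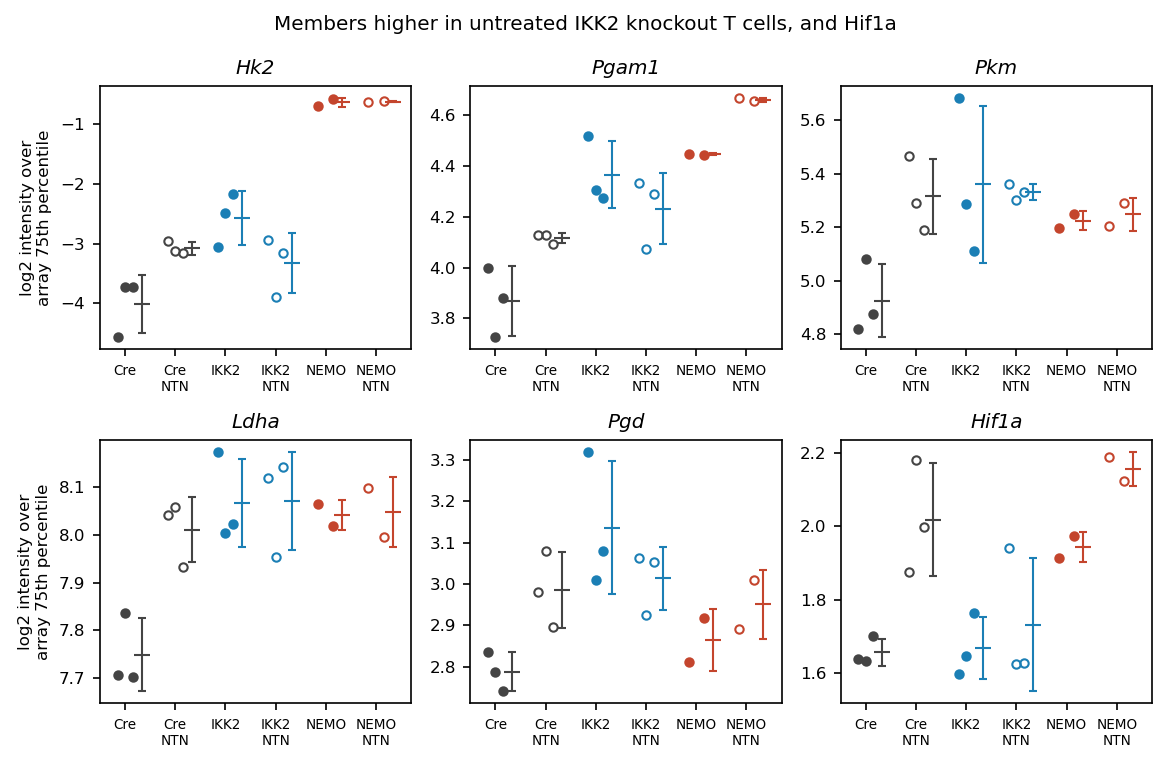
Levels of Hif1a and of the 5 members higher in untreated IKK2 knockout cells on each array, as log2 intensity over the array's 75th percentile, with the mean ± SD of 2 or 3 arrays. The IKK2 knockout arrays without nephritis (filled blue) lie above the untreated Cre control arrays (filled grey) for the 5 genes, as for 18.9% of all genes. The nephritic groups of both genotypes (open) overlap.

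With nephritis no member differed between IKK2 knockout and Cre control cells in limma, while 2.58% of all genes did. At an unadjusted p under 0.05 there were 3 members, all lower in the knockout, beside 18.1% of all genes. All 6 arrays of this comparison lay on slide 1. The standard errors of the members ranged from 0.062 to 0.42 with a median of 0.099, so that the 95% interval of a typical member reached 0.22 to either side. Hk2 differed by -0.25 (SE 0.29) and Ldha by 0.061 (SE 0.078) here, beside 1.44 and 0.32 without nephritis. The change of the genotype difference with nephritis was -1.69 for Hk2 (SE 0.41, adjusted p = 0.0681), and no member passed this test (1.14% of all genes did, and 8 members reached an unadjusted p under 0.05, all with a lower response in the knockout, beside 19.9% of all genes).

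Nephritis itself changed no member past the threshold. In Cre control cells no member was called (4.03% of all genes were). There, 33 of 37 members had a positive difference, 19 reached an unadjusted p under 0.05, all upward (24.7% of all genes in either direction), and the median was 0.20 beside 0.10 over all genes. In 18 members all 3 nephritic arrays lay above all 3 untreated arrays, which was so for 20.8% of all genes. The lowest adjusted p was that of Hif1a, which was higher on each nephritic than on each untreated control array (0.36, SE 0.10, adjusted p = 0.0638). The untreated controls lay on slide 2 and the nephritic controls on slide 1, so that nephritis and slide cannot be told apart in this genotype except through IKK2 knockout replicate 3. In IKK2 knockout cells no member passed (0.443% of all genes), 6 reached an unadjusted p under 0.05 (14.9% of all genes) and the median was 0.0049. In NEMO knockout cells, where both conditions were on slide 3, no member passed (0.402% of all genes), 3 reached an unadjusted p under 0.05 (6.37% of all genes) and the median was 0.041. Sums of markers of other cells were higher on some nephritic arrays: neutrophil genes summed to 2.31 to 3.003 in untreated and 3.59 to 23.0 in nephritic controls, 4.90 to 6.35 and 12.3 to 73.2 in IKK2 knockout and 2.303 to 4.05 and 21.3 to 92.0 in NEMO knockout cells, times the array's 75th percentile. In controls the sums went from 6.99 to 11.7 to 7.12 to 432 for erythroid and from 18.8 to 21.2 to 25.5 to 79.0 for plasma cell genes, with 5 of 18 cell cycle genes, 2 of 7 erythroid and 0 of 7 neutrophil genes called higher. Their part in the nephritis differences was not tested.

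Of 87 other genes of these pathways and their regulators tested, 13 were higher and 25 lower in untreated NEMO knockout cells than in controls, and 12 were higher and 33 lower with nephritis. The called shares of 43.7% and 51.7% were close to the 43.0% and 48.4% of all genes. Ldhd, a mitochondrial D-lactate dehydrogenase, was -0.17 ± 0.28 (SD, n = 3) in untreated controls and -2.46 ± 0.11 (n = 2) in NEMO knockout cells, a difference of -2.29 without nephritis (adjusted p = 9.57e-06) and of -3.53 with it (adjusted p = 5.34e-07). P4ha2, a subunit of collagen prolyl hydroxylase and a hypoxia target, was lower (-1.42 and -1.72, adjusted p = 9.24e-07 and 2.54e-07). Egln3, a prolyl hydroxylase that marks HIF1A for destruction, was higher by 2.17 and 1.91 (adjusted p = 2.70e-05 and 6.51e-05). Ero1a, an oxidase of protein folding, was higher by 1.71 and 1.58, Tktl1, a transketolase-like gene, by 2.52 and 2.32 and Pgam2, the muscle phosphoglycerate mutase, by 3.07 and 2.79. Pgam2 and Tktl1 were dim: 2 of 3 untreated control arrays measured Pgam2 above background, and 2 of 3 nephritic control arrays measured each of them. In nephritic IKK2 knockout arrays Tktl1 was not well above background on any, and the nephritic NEMO knockout was at least 6.74-fold higher.

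Of 19 HIF1 regulators and non-glycolytic hypoxia genes, 2 were higher (Egln3 and Ero1a) and 6 lower without nephritis, and 2 were higher and 10 lower with it (42.1% and 63.2% called, beside 43.0% and 48.4% of all genes). Vegfa was not well above background on either untreated NEMO knockout array, and untreated IKK2 knockout cells were at least 2.47-fold higher. Pfkfb4, a bifunctional regulator of phosphofructokinase, was lower than in untreated IKK2 knockout cells (-1.38, adjusted p = 1.67e-05). Myc, which drives glycolytic genes in activated T cells, was lower than in controls (-1.18 and -1.496, adjusted p = 2.32e-04 and 4.07e-05), at 0.70 ± 0.084 and 0.68 ± 0.24 (SD, n = 2 each) against 1.88 ± 0.073 and 2.18 ± 0.13 (n = 3 each). In IKK2 knockout cells Myc differed by -0.062 and -0.080 and did not pass. The mTOR inhibitor Ddit4 was higher in nephritic IKK2 knockout cells than in nephritic controls by 1.34 (adjusted p = 0.0121) and than in untreated IKK2 knockout cells by 1.504 (adjusted p = 0.0199).

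Markers of cell state and of other cells moved with the genotypes. In bulk RNA, a change in the share of a cell type and a change in RNA per cell cannot be told apart. The arrays were of T cells, with all 12 T cell identity genes well above background on every array, 5 of them lower in untreated NEMO knockout cells (list median -0.23). Summed over the 18 cell cycle genes, the intensity was 58.7 to 61.2 times the array's 75th percentile in untreated controls, 72.5 to 87.5 in nephritic controls, 85.3 to 106.8 and 77.1 to 98.2 in IKK2 knockout and 222 to 226 and 246 to 284 in NEMO knockout cells, with 16 of 18 higher in the untreated NEMO knockout. Antigen-experienced T cell genes summed to 179 to 211, 154 to 215, 153 to 433, 129 to 251, 1123 to 1301 and 1176 to 1228 in the same order, with 11 of 11 higher. Naive T cell genes summed to 704 to 819, 717 to 849, 636 to 743, 726 to 833, 357 to 362 and 275 to 299, with 8 of 10 lower. Of all genes, 21.0% were higher and 22.0% lower in the untreated NEMO knockout than in controls. The part of these markers in the NEMO knockout differences was not tested.

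In untreated IKK2 knockout cells 9 of 10 B cell genes, 8 of 9 myeloid genes and 14 of 18 cell cycle genes were higher than in controls, and in untreated NEMO knockout cells 7 of 10 and 8 of 9 of the first 2 lists. Of all genes, 10.0% were higher in the untreated IKK2 knockout and 21.0% in the untreated NEMO knockout. B cell genes summed to 2.97 to 3.89 in untreated controls, 11.5 to 16.8 in untreated IKK2 knockout and 11.6 to 12.7 in untreated NEMO knockout cells, while T cell identity genes summed to 1411 to 1537, 1430.2 to 1559 and 1272 to 1332. With nephritis the sums of the B cell genes were 4.70 to 8.42, 7.44 to 11.2 and 8.99 to 10.00 in the same order. Myeloid genes summed to 66.3 to 88.6, 39.6 to 59.3 and 50.9 to 59.9 without nephritis. This sum, which the brightest genes dominate, was highest in the controls although 8 of 9 genes of the list were higher in each knockout. In untreated NEMO knockout cells 5 of 6 plasma cell, 5 of 6 dendritic cell and 5 of 8 NK and CD8 genes were also higher, and in untreated IKK2 knockout cells 2, 3 and 4 of them. Plasma cell genes summed to 18.8 to 21.2, 29.9 to 37.6 and 46.9 to 51.7, and NK and CD8 genes to 14.4 to 16.8, 31.8 to 48.7 and 33.4 to 51.1, in the same order without nephritis, while dendritic cell genes summed to 211 to 302, 164 to 288 and 217 to 223. Pax5 was not well above background on any control or NEMO knockout array, and Cd14 was not on any control array. The part of these cells in the Hk3, Hk2, Pgam1, Pkm, Ldha and Pgd differences was not tested.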

How the data were processed

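RNA of purified splenic CD4+ T cells was hybridised to 16 one-colour Agilent arrays. Spot intensities were deposited by the authors as Agilent Feature Extraction output (version 10.5 per the submitters' processing notes, 10.7.3.1 per the file headers), background-subtracted and otherwise processed by that software. The authors' deposited table of log2 values, whose column medians lie between 5.65 and 5.68, served as an alternative only, since its normalization and background treatment are not given in the sources used here. The processed intensity was taken to log2 minus each array's 75th percentile. Control and outlier spots were left out and spots of 1 probe averaged. Accessions in the files were matched to RefSeq names (assembly GRCm38.p6): 27242 of 55681 probes had 1 gene and 28439 none. The file headers name build mm9, so no gene coordinates are given beyond those of the promoter table. Of a gene's probes that exceeded background well on 2 or more arrays, the brightest on average was used. For the 9 members with several probes the other probes had the same sign wherever the member was called (37 of 37 cases).

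A model of 6 group means was fitted with limma 3.58.1 in R 4.3.3 (lmFit, eBayes) to all 16 arrays and 14674 genes. It was tested on simulated arrays with independent noise and no added difference of slide, so that test does not bear on slide. The number of arrays limits the precision. A fold written "at least" sets the brighter group's mean against a floor. On each dim array the floor was the smallest signal of any well detected probe, or the probe's own signal where that was higher. Alternatives were other background corrections, scalings, filters and blocks, array weights and leaving out arrays. Slide as a fixed block was not run for NEMO knockout against the other genotypes, which share no slide with it. The normexp alternative used the median spot and background signals.

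The members and the pathway and marker lists were chosen with earlier results of these data known. Values on every array are given for members past a 2-fold change, for families with over 1 member and for Hif1a, Pfkfb3, Pdk1, Gapdh, Pkm and G6pdx, and other pathway genes are named where they passed with a 2-fold change, at most 6 per comparison, as well as Myc.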

Additional observations from a re-analysis of the deposited data

How the results depend on the processing

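Of 1774 values of called members recomputed under the alternatives, 1628 kept their direction and call, 143 kept the direction only and 3 turned: Idh1 in nephritic NEMO knockout against Cre control cells was -0.028 after normexp correction, and Mdh2 there was 0.090 after quantile normalization and 0.0020 in the authors' deposited table. The number of members called in untreated IKK2 knockout against Cre control cells moved from 5 to 3 with normexp correction, 1 with median scaling, 8 with quantile normalization, 3 with no filter on dim probes, 1 when only the arrays compared were fitted, 1 with slide as a fixed block, 0 within slide 2, 9 with array weights and 3 without the Cre control arrays that stood apart. With nephritis it was 1 rather than 0 with median scaling and with array weights. In untreated NEMO against IKK2 knockout cells it was 15 rather than 9 with array weights. For nephritis in Cre control cells it was 1 with quantile normalization, 3 in the deposited table and 11 with array weights, and in IKK2 knockout cells 1 over probes above background on all arrays, where 0 were called otherwise. The IKK2 knockout response minus that of controls had 1 call with array weights. In NEMO knockout against control cells the settings other than leaving out 1 array gave 13 to 23 calls without nephritis (23 with quantile normalization) and 14 to 20 with it, rather than 16 each, and in nephritic NEMO against IKK2 knockout cells 14 to 21 rather than 15. Leaving out 1 array at a time gave 11 to 19 and 12 to 19 calls in NEMO knockout against control cells without and with nephritis, 2 to 7 and 0 to 0 in IKK2 knockout against control cells, 7 to 13 and 12 to 18 in NEMO against IKK2 knockout cells, 0 to 2 for nephritis in controls and 0 in the other 4 comparisons. The 2 calls for nephritis in controls came without IKK2 knockout replicate 1. No sign was seen that the replicate numbers of the labels pair the samples. Same-numbered arrays correlated above 0.1 in 3 of 36 pairs, and 3 of 16 arrays matched their own number best. These correlations are of deviations from means of 2 or 3 arrays, so they cannot exclude pairing. With the replicate block 14 and 16 members were called in NEMO knockout against control cells, 5 and 0 in IKK2 knockout against control cells and 11 and 15 in NEMO against IKK2 knockout cells. Median scaling moved the median difference of all genes in nephritic NEMO knockout cells from -0.14 to 0.032. The background signal of slide 1 was higher than that of the others (net negative-control signal of 40.5 to 46.0 against 16.4 to 22.4), which limits dim genes such as Hk2, Hk3, Eno2, Idh1 and Aco1. The cause of the differences between alternatives was not tested.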
